A study of Mus musculus with 2 samples.

Results

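Integrins are adhesion receptors built from 1 alpha and 1 beta chain, and the chains used by natural killer (NK) cells are described here in a pair of NK cell populations from mouse liver. The members are 10 genes chosen by name as integrin chains of NK cells: the collagen-binding chains Itga1 and Itga2, the beta 1 chain Itgb1, the alpha 4 chain Itga4 with its mucosal partner Itgb7, the second mucosal chain Itgae, and the leukocyte chains Itgal, Itgam, Itgax and Itgb2. Every probe set annotated to 1 of these symbols alone was taken, which gave 22 of 45101 probe sets, and 10 of 18194 named genes. Both populations came from untreated wild-type mice of the B6 strain and were sorted by flow cytometry from liver as NK1.1+ CD3- cells. The DX5- array held the cells that did not bind the antibody DX5, and the DX5+ array held the cells that did. There was 1 array for each population; the sources used here do not state ages, sexes or how many mice were pooled for an array. DX5 recognises the protein product of Itga2, so the sort itself separates the cells by 1 of the chains described.

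An integrin heterodimer reaches the cell surface only when its alpha and beta chains assemble, and the alpha chain largely decides which ligand is bound. Chains with beta 1 bind mostly extracellular matrix, chains with beta 2 bind ICAMs and complement fragments on other cells, and chains with beta 7 bind ligands of mucosal vessels and epithelium. In mouse liver, integrin alpha 1 (CD49a) and integrin alpha 2 (CD49b) are widely used surface markers that separate tissue-resident from circulating NK cells, and integrin alpha M (CD11b) is acquired as NK cells mature.

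Signals are MAS5 intensities, 1 linear value per probe set and array. A probe set counted as detected above a limit, which was 98.4 intensity units for DX5- cells and 107 for DX5+ cells; it is the 95th percentile of the 154 probe sets of crystallins, opsins, keratin-associated proteins and the olfactory, taste and vomeronasal receptors. Where a single array was above its limit, the fold is a lower bound against the other array's limit and is written "at least"; where neither was, no fold is given. With n = 1 in each population no replicate spread exists, no difference below has a test or a p-value, and all folds describe these arrays. Between probe sets of the same gene the log2 ratio had an SD of 0.32 over 4050 genes with several probe sets above both limits, which covers probe noise alone. In bulk RNA, fewer cells of a type and less RNA per cell cannot be told apart.

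The cells' identity was checked on marker genes. All 13 NK cell genes that a probe set names alone were above both limits, with a median log2 ratio of -0.00038. Among them the receptor gene Ncr1 read 2389.7 on the DX5- array against 1788 on the DX5+ array. Eomes, a transcription factor gene of mature NK cells, read 1991 and 16107. Of the 13, 2 were at least 2-fold lower in DX5- cells, beside 5.36% of all detected genes. These were Eomes and the perforin gene Prf1, which read 3108 against 8978. Klrb1c, which encodes NK1.1, is not named alone by any probe set. Of 11 T cell genes 9 were above a limit. On the DX5- array 5 were at least 2-fold higher, beside 3.61% of all detected genes. Among these 5 was the CD3 chain gene Cd3g at 14036 against 1072, although the labels give both sorts as CD3-. The other CD3 chain genes were dimmer, Cd3d at 2607 against 782 and Cd3e at 373.2 against 83.1. Cd3e was above the limit on the DX5- array alone, so it had to differ. Lat and Bcl11b made up the rest of the 5. Cd28 went the other way, at 7668 against 8442, within 2-fold. Cd8a read 206.3 against 81.3 and was above the limit on the DX5- array alone, at least 1.94-fold higher; Cd4 and Cd8b1 were below both limits.

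The integrin chains differed between the populations in both directions. Of the 10 members 9 were above the limit on at least 1 array and 7 on both. By the brightest probe set of each gene, Itga1 was the 1 member at least 2-fold higher in DX5- cells, beside 3.61% of 9862 detected genes. Itgam, Itga4, Itgae and Itgb1, 4 in all, were lower in DX5- cells by 2-fold or more, beside 5.36% of detected genes. Itga1 and Itgae passed the detection step through 1 array alone, so they had to differ. The members were also chosen with earlier results of these data known. The counts in this paragraph therefore support no statement on integrin chains as a group. Itgb7, Itgax, Itgal and Itgb2 were within 2-fold. The members' median log2 ratio (DX5- minus DX5+) was -0.29, and that of all detected genes was -0.013. On the level of probe sets, 17 of the 22 were above a limit; 1 was at least 2-fold higher (3.37% of 18002 detected probe sets) and 7 at least 2-fold lower (4.98%); 4 of those 7 belong to Itga4 and so share a target.

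**Figure D1:**
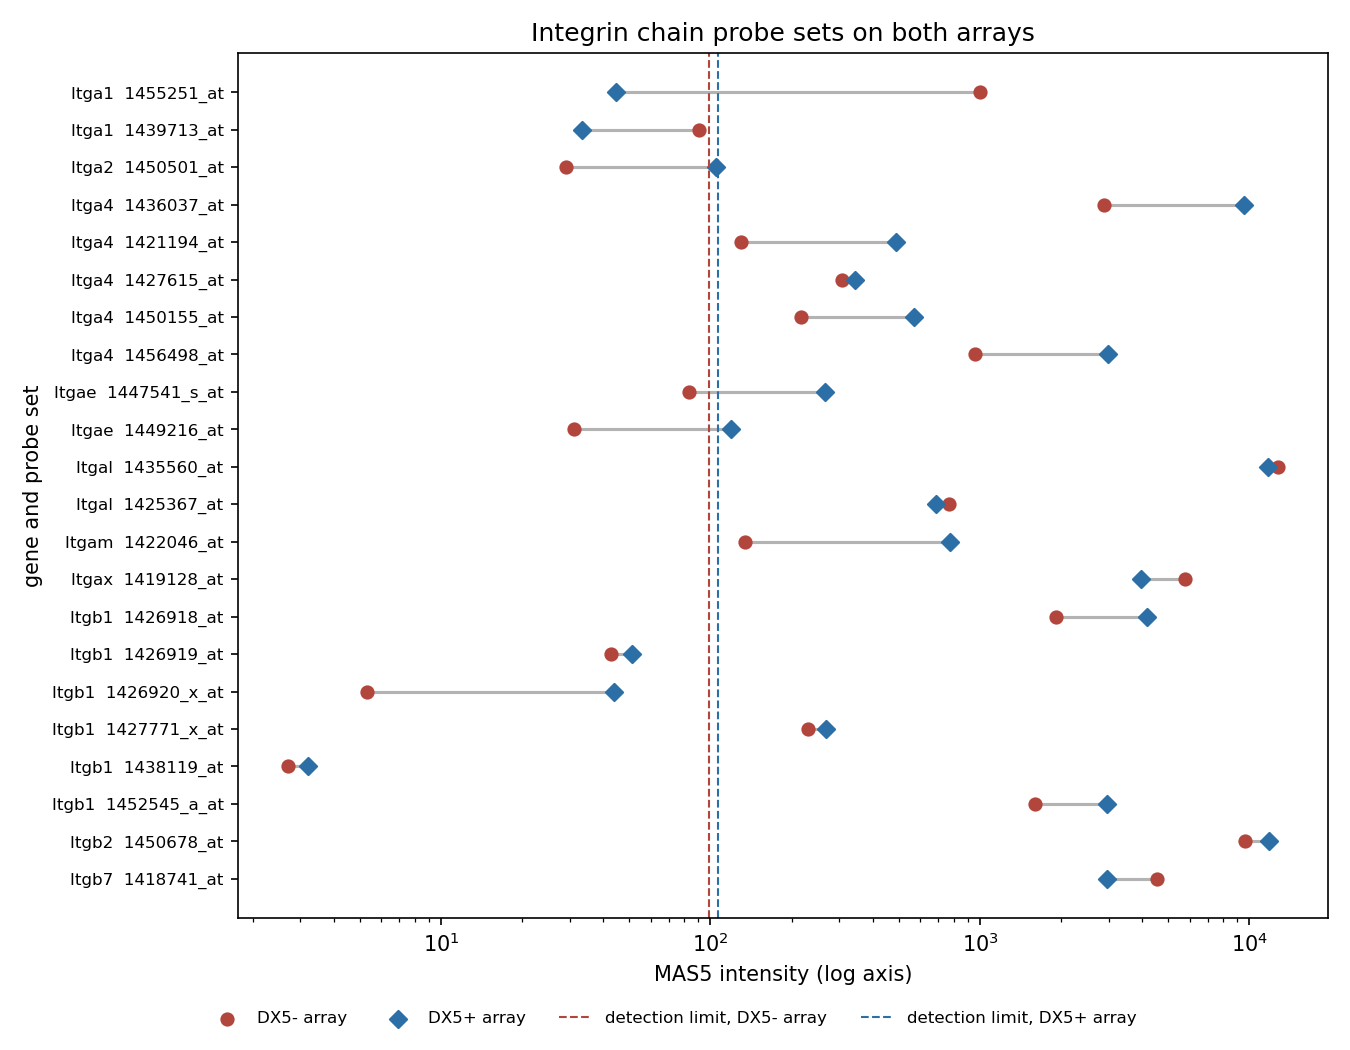
MAS5 intensity (log axis) of each of the 22 probe sets of the 10 integrin chain genes on the DX5- array (red circles) and the DX5+ array (blue diamonds); dashed lines mark each array's detection limit. The pair of values lies far apart for Itga1 (999 against 44.5), for most Itga4 probe sets and for Itgam (135 against 773), and close together for Itgal and Itgb2.

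Of the collagen-binding alpha chains, Itga1 was higher in DX5- cells and Itga2 was below both limits. Itga1 encodes integrin alpha 1, which pairs with beta 1 and binds collagen, with a preference for the collagen IV of basement membranes. Its brighter probe set (1455251_at) read 999 on the DX5- array against 44.5 on the DX5+ array, the latter below the limit, so the transcript was at least 9.37-fold higher in DX5- cells. The dimmer Itga1 probe set (1439713_at) read 90.8 and 33.4, below both limits, with the higher value again on the DX5- array. Under every one of the 10 processing settings tried, the gene stayed at least 2-fold higher in DX5- cells; under a limit at the 99th percentile (317 and 157) the bound was at least 6.37-fold.

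Itga2 encodes integrin alpha 2, the collagen receptor chain that DX5 binds. Its only probe set (1450501_at) was dim on both arrays, at 29.0 in DX5- cells and 105 in DX5+ cells. Neither array reached its limit and a fold cannot be given. The DX5+ value is close to the limit of 107. When 3 probe sets of genes that carry the crystallin name but are not lens crystallins were dropped from the limit, a setting added after the values were known, the limits became 76.0 and 82.2. Itga2 was then detected in DX5+ cells alone, by at least 1.38-fold. The array therefore bounds the Itga2 difference poorly, and the sort marker is not checked by its own transcript here.

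Itga1 and Itga2 lie next to each other on chromosome 13 in the RefSeq gene table (GRCm38.p6), with a long noncoding RNA gene (Gm34845), inside the span of Itga2, listed between them. Pelo, a gene of ribosome rescue that lies inside the span of Itga1, read 918 in DX5- cells against 406 in DX5+ cells, 2.26-fold higher in the DX5- population. Mocs2, a gene of molybdenum cofactor synthesis on the far side of Itga2, read 840.4 and 1338, 1.59-fold lower. Pelo was thus past 2-fold in the direction of Itga1; Itga2 has no ratio with which Mocs2 could be compared. The sources used here do not state which bases each probe set reads, so signal from Pelo and from Itga1 cannot be fully separated.

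The bases before the annotated starts of this gene pair are shown because the sort used the product of Itga2 and Itga1 had the largest ratio of the members, as a bound. Each sequence is the 250 bases up to the annotated start from RefSeq's promoter table (GRCm38.p6), written 5′ to 3′ on the gene's strand, at chr13:115101965-115102214 (minus strand) for Itga1 and chr13:114932101-114932350 (minus strand) for Itga2. Of the 10 members 7 had an entry in that table. Capitals would mark 5 short motifs searched on both strands: GGTGTGA (T-box factors, in 3.33% of 32851 promoter windows of the same length), TGTGGT (Runx factors, 14.0%), GAGGAA (PU.1, 23.3%), GGGCGG (Sp1, 32.7%) and TGANTCA (AP-1, 6.75%).
Itga1: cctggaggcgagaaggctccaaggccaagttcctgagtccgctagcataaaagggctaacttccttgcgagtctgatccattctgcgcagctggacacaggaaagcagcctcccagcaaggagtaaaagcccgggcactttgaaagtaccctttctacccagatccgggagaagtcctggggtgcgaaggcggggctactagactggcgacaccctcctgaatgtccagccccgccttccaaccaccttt
Itga2: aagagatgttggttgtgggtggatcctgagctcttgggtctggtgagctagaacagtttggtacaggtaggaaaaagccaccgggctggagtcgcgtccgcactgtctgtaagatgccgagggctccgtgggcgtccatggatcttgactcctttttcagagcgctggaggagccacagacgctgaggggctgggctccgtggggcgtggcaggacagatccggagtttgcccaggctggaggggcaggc
Neither window held any of the 5 motifs, so both are printed without capitals. Their GC contents were 57.6% and 60.8%, beside a median of 52.4% over all windows. The absence of these letters in 250 bases says nothing on whether a factor acts on the gene.

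Itgb1 encodes the beta 1 chain, the shared partner of alpha 1, alpha 2 and alpha 4 and of several other alpha chains. Its brightest probe set (1426918_at) read 1921 on the DX5- array against 4158 on the DX5+ array, 2.16-fold lower in DX5- cells (log2 ratio -1.11). A second bright probe set (1452545_a_at) read 1601 and 2959, 1.85-fold lower. Another probe set (1427771_x_at) read 231 and 268, 1.16-fold lower. These 3 probe sets agree in direction but differ in size, and 1 of them passes 2-fold. The other 3 probe sets were below both limits, with 42.8 and 51.1 for 1426919_at, 5.3 and 43.8 for 1426920_x_at, and 2.7 and 3.2 for 1438119_at; in each the higher value lay on the DX5+ array. The gene fell short of 2-fold with median centring (log2 ratio -0.96), with scaling to the spike-in controls (-0.91) and with the mean over probe sets (-0.74). Among 8773 genes above both limits, 3.75% had a lower ratio than Itgb1. The chain with which alpha 1 must pair was thus not higher in the population in which Itga1 was higher.

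Itga4 encodes integrin alpha 4 (CD49d), which with beta 1 binds VCAM-1 and fibronectin and with beta 7 binds the mucosal addressin MAdCAM-1. As deposited it was lower in DX5- cells on all of its 5 probe sets, each above both limits, though only slightly on 1 of them. The brightest (1436037_at) read 2886 in DX5- cells against 9576 in DX5+ cells, 3.32-fold lower in DX5- cells. The probe set 1456498_at read 959.9 and 2979.9, 3.10-fold lower. The remaining 3 were dimmer: 1421194_at read 129.6 and 488.5 (3.77-fold lower), 1450155_at read 217 and 569 (2.62-fold lower), and 1427615_at read 307 and 342 (1.12-fold lower). The last of these stands apart from the other 4, and its log2 ratio of -0.16 became -0.0075 with median centring and turned to 0.05 with spike-in scaling; the range of log2 ratios within the gene was 1.76. Among 725 genes with 4 or more probe sets above both limits, whose median range was 0.60, 7 (0.966%) had a range at least that wide. The mean over probe sets gave a log2 ratio of -1.36, still past 2-fold. By the brightest probe set Itga4 ranked 107th from the lowest among 8773 genes above both limits.

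Itgb7 encodes the beta 7 chain, the mucosal partner of alpha 4 and alpha E. Its probe set (1418741_at) read 4544.5 in DX5- cells against 2948 in DX5+ cells, 1.54-fold higher in DX5- cells and within the 2-fold threshold. The direction was the opposite of that of both of its alpha partners. Itgae encodes integrin alpha E (CD103), which with beta 7 binds E-cadherin on epithelial cells and is carried by many tissue-resident T cells. Its probe set 1447541_s_at read 83.6 in DX5- cells, below the limit, and 265 in DX5+ cells, at least 2.69-fold lower in DX5- cells. The second, 1449216_at, read 31.2 and 119, at least 1.21-fold lower. Both probe sets are dim, and the call of 2-fold rests on the first of them: the log2 bound was -0.27 without probe sets of the _x_at, _s_at and _a_at kinds, -0.85 with the mean over probe sets and 0 under the 99th percentile limit, where the limit of 317 for DX5- cells exceeded the DX5+ value. Haspin, a kinase gene of mitosis inside the span of Itgae on chromosome 11, read 147.5 and 340.4, 2.31-fold lower in DX5- cells, so that signal from Itgae and Haspin cannot be fully separated either. Ncbp3, on the other side of Itgae, read 554 and 618.

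The leukocyte integrin chains, which pair with beta 2, split by alpha chain. Itgam encodes integrin alpha M (CD11b), part of complement receptor 3. Its probe set (1422046_at) read 135 in DX5- cells against 773 in DX5+ cells, 5.73-fold lower in DX5- cells (log2 ratio -2.52). It ranked 27th from the lowest among 8773 genes above both limits and had the largest measured difference among the members. The DX5- value lies close to the limit of 98.4, and under the stricter limit of the 99th percentile the difference was at least 2.44-fold. Under all 10 settings Itgam stayed at least 2-fold lower in DX5- cells.

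Itgax encodes integrin alpha X (CD11c), a complement receptor chain found on dendritic cells and on mouse NK cells. Its probe set (1419128_at) read 5739 in DX5- cells against 3971 in DX5+ cells, 1.45-fold higher in DX5- cells. In the gene table Itgax follows Itgam on chromosome 7 with a pseudogene listed between them, and the neighbours differed in opposite directions. Itgal encodes integrin alpha L (CD11a), which with beta 2 forms the ICAM-1 receptor LFA-1. Its probe sets read 12756 against 11734 (1435560_at) and 767 against 684 (1425367_at), 1.09-fold and 1.12-fold higher in DX5- cells. Itgb2, the shared beta 2 chain (CD18), read 9639.9 against 11815, 1.23-fold lower. Differences of the size seen for Itgal and Itgb2 are within the SD of 0.32 between probe sets of a gene. Zfp768 beside Itgal, Pttg1ip beside Itgb2, and Zfp740 and Rarg, which flank Itgb7, were within 2-fold, and Cerkl beside Itga4 was below both limits.

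The windows before the starts of Itga4 and Itgam are shown as those of the 2 alpha chains that were lower in DX5- cells on both arrays' measured values, with the motifs listed above in capitals. They lie at chr2:79255176-79255425 (plus strand) for Itga4 and chr7:128062390-128062639 (plus strand) for Itgam in GRCm38.p6.
Itga4: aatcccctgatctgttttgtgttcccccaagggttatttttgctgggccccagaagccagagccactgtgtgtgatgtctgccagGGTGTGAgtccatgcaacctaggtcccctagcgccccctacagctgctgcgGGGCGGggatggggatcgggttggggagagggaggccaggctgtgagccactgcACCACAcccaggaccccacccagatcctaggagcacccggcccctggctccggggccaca
Itgam: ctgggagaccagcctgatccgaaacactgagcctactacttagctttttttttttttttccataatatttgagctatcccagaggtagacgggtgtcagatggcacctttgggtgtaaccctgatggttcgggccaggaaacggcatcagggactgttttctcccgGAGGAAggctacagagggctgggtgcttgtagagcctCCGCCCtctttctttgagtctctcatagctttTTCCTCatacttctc
The Itga4 window held GGTGTGA on the gene's strand 165 bases before the start, GGGCGG at 114 bases and TGTGGT on the other strand at 60 bases. The Itgam window held GAGGAA at 84 bases and, on the other strand, at 15 bases, and GGGCGG on the other strand at 47 bases. Eomes and Tbx21 encode T-box factors of NK cells. Eomes was 8.09-fold lower in DX5- cells, and Tbx21 read 9474.5 against 7704, 1.23-fold higher. Both genes were chosen after their values were seen, and genes of the Runx, PU.1 and Sp1 factors were not examined. A part of any of these factors in the values of Itga4 and Itgam was not tested. Among the other members with an entry, the Itgax window held TGANTCA, the Itgb1 window GAGGAA and GGGCGG, and the Itgb7 window none of the motifs. A match describes letters and is no evidence of binding.

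**Figure D2:**
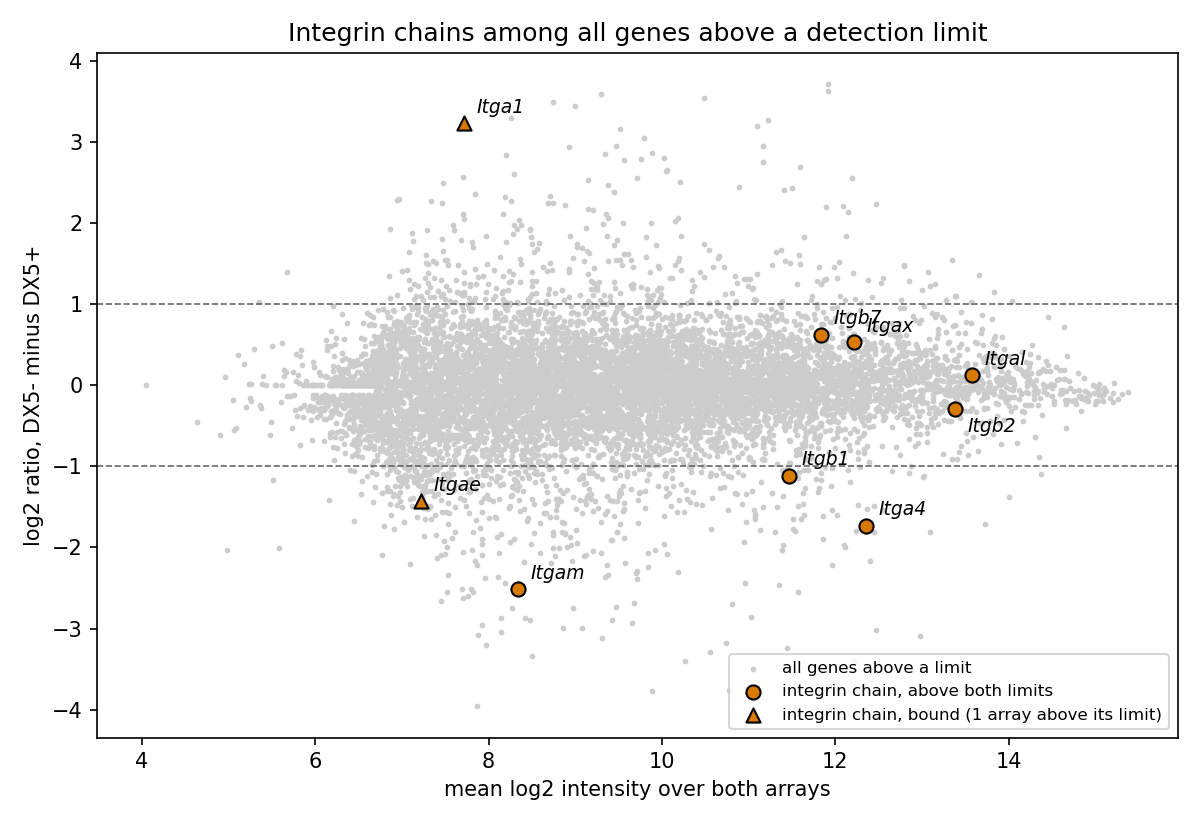
Log2 ratio (DX5- minus DX5+) against mean log2 intensity for 9862 genes above a detection limit on at least 1 array (grey), with 9 integrin chains in orange (circles above both limits, triangles a bound); dashed lines mark 2-fold. Itga1 lies at the top with a bound of 3.23, Itgam, Itga4, Itgae and Itgb1 lie below -1, and the other 4 lie between the lines; Itga2 was below both limits and is not drawn.

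Known partner chains were set side by side. Of 8 heterodimers formed among the members, alpha and beta had the same sign in 2 (alpha 4 beta 1 and alpha M beta 2) and opposite signs in 5; alpha 2 beta 1 could not be placed. In alpha 1 beta 1 both chains passed 2-fold, in opposite directions (3.23 and -1.11). In alpha 4 beta 1 both passed 2-fold in the same direction (-1.73 and -1.11). The signs of alpha L beta 2, alpha M beta 2 and alpha X beta 2 rest on Itgb2. The log2 ratios of Itgb2 and of Itgal are within the SD of 0.32 between probe sets of a gene. Several pairs share a chain, and Itga1 and Itgae had to differ. The counts therefore describe transcripts only, and surface heterodimers were not measured by the array.

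Other integrin chains were examined from a list of 17 written beside the members, of which 15 had a probe set and 6 were above a limit. Itgav, the alpha V chain that binds matrix proteins and latent TGF-beta, was higher in DX5- cells on all 4 of its detected probe sets. The brightest read 13939.6 against 5282, 2.64-fold higher; others read 2212.5 against 546 (4.05-fold) and 498 against 116 (4.31-fold), and the fourth was at least 1.95-fold higher. Itgb3, a beta partner of alpha V, read 492 against 185, 2.66-fold higher in DX5- cells. Itga6, a laminin receptor chain, read 562.5 against 1189.8 on its brighter probe set, 2.12-fold lower in DX5- cells, and 247 against 657 on the other, 2.66-fold lower. Itga2b, the platelet partner of beta 3, read 287 against 675, 2.35-fold lower. Itga3 (224 against 217) and Itgb5 (175 against 212.5) were within 2-fold. With median centring or spike-in scaling Itga6 was no longer past 2-fold. That left 1 in place of 2 of these chains at least 2-fold lower. Of all detected genes 3.9% and 3.56% were then lower, against 5.36% as deposited.

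Genes that switch integrins on, or tie them to actin, lay on both sides. Of 32 with a probe set 30 were above a limit, and 25 of these were within 2-fold, with a median log2 ratio of -0.18; 2 were at least 2-fold higher and 3 lower, beside 3.61% and 5.36% of all detected genes. Tln1, the talin gene (2508 against 2351), and Fermt3, the kindlin of blood cells (6006 against 5048 on its brightest probe set), both needed for integrin activation, were among them. Those at least 2-fold higher in DX5- cells were Actn1, an alpha-actinin gene (969 against 301, 3.22-fold), and Sipa1, which encodes a GTPase-activating protein that turns Rap1 off (1256 against 528, 2.38-fold). Those at least 2-fold lower were Rap1gap2, another Rap1 GTPase-activating protein (192 against 1527, 7.97-fold), Vcl, the vinculin gene (1119.8 against 3609, 3.22-fold), and Flna, the filamin A gene (1947 against 3961, 2.03-fold). Of the genes whose products turn Rap1 off, 1 was thus past 2-fold on each side. Without the _x_at, _s_at and _a_at probe sets, 5 in place of 3 genes of this list were at least 2-fold lower, beside 5.48% of detected genes.

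Of 22 ligand genes with a probe set 7 were detected, beside 9862 of all 18194 named genes, and their median log2 ratio was 0.17. At least 2-fold higher in DX5- cells was 1 and at least 2-fold lower 1, beside 3.61% and 5.36% of all detected genes. Cdh1, the E-cadherin gene and ligand of alpha E beta 7, read 1982 in DX5- cells against 289 in DX5+ cells, 6.85-fold higher in the population in which Itgae was lower. Col4a1, a collagen IV chain gene, read 224 in DX5+ cells and a value just above the limit of 98.4 in DX5- cells, 2.24-fold lower. Thy1 (3264.5 against 1836, 1.78-fold) and Icam1, the LFA-1 ligand gene (11590.3 against 7495, 1.55-fold), were higher in DX5- cells but within 2-fold. Vcam1, Madcam1, Col1a1 and Fga, genes of further ligands of these integrins, were below both limits.

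**Figure D3:**
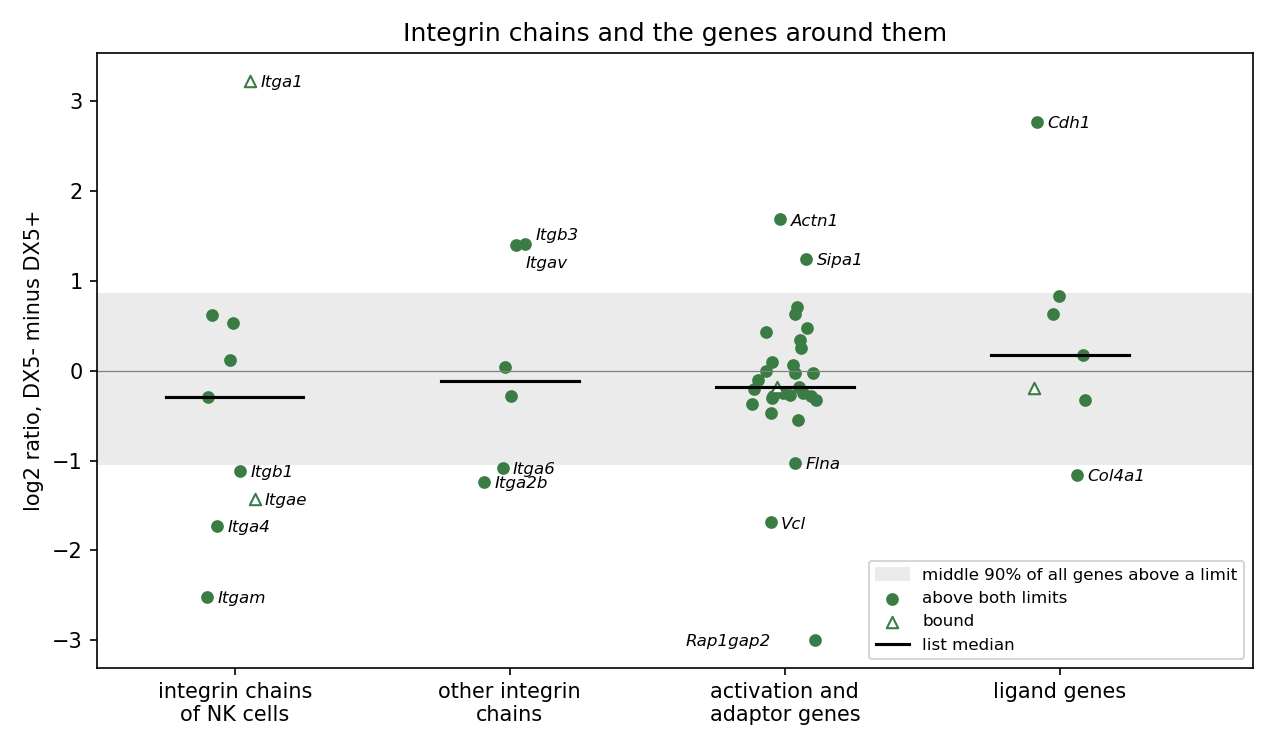
Log2 ratio (DX5- minus DX5+) of each detected gene in 4 lists (9 integrin chains of NK cells, 6 other integrin chains, 30 activation and adaptor genes and 7 ligand genes); filled points are above both limits, open triangles are bounds, bars are list medians and the grey band is the middle 90% of all detected genes (-1.04 to 0.859). Most adaptor genes lie inside the band, and 5 of the 9 integrin chains lie outside it. Of these, Itga1 and Itgae are bounds that had to differ, and the members were chosen with earlier results of these data known.

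Markers of other cells moved with some of these chains. Over all detected genes, the background for each count in this paragraph, 3.61% were at least 2-fold higher and 5.36% lower in DX5- cells. Platelets carry alpha 2 with its partner beta 1, and alpha IIb with beta 3. Of 9 platelet genes (Itga2b and Itgb3 among them) 6 were at least 2-fold lower and 1, Itgb3, at least 2-fold higher in DX5- cells. Their summed intensity was 1779 on the DX5- array against 6065 on the DX5+ array. All 9 were above a limit on at least 1 array. The 6 lower ones were Pf4, Ppbp, Clec1b, Itga2b, Gp1bb (75.7 against 563.6) and Gp9 (62.1 against 209.3). Gp1bb and Gp9 were above the limit on the DX5+ array alone, so they had to come out lower in DX5- cells. Myeloid cells carry alpha M and alpha X. Of 13 macrophage genes 5 were above a limit and 4 were at least 2-fold lower in DX5- cells, with sums of 1245 and 4129.8. The 4 were Mpeg1 (515.9 against 2190.3), Lyz2 (278.1 against 956.1), Cd68 (175.6 against 360.4) and Csf1r (75.9 against 232.7, a bound). Clec4f, C1qa, C1qb, Timd4 and Marco were among those below both limits. Of 9 neutrophil genes 6 were above a limit and 3 were at least 2-fold lower, with sums of 3927 and 9879. The 3 were S100a8 (1997.7 against 5020.5), S100a9 (1020.5 against 2957.6) and Ngp (343.5 against 1009.7). Mpo, Elane and Mmp8 were below both limits. Of 9 dendritic cell genes, Itgax included, 8 were above a limit and 2 were at least 2-fold lower, with sums of 9589 and 12947. The T cell genes had sums of 29247 and 12160.5. Of 7 B cell genes 6 were above a limit, all within 2-fold, with sums of 1589.9 and 1208.7. Of 7 hepatocyte genes 5 were above a limit and 1 was at least 2-fold lower in DX5- cells, with sums of 1564.5 and 2333.1. Of 8 endothelial genes 5 were above a limit, all within 2-fold, with sums of 1179.8 and 1509.5. Itgax went against the direction of the myeloid lists. It alone made up 5739 of the dendritic sum of 9589 and 3971 of that of 12947. Itgb3 and Gp6 (157.2 against 104.5, the latter below the limit) went against the direction of the platelet list. The part of these cells in the values of Itga2, Itga2b, Itgb1, Itgb3, Itga6, Itgam, Itgax, Itga4 and Itgae was not tested.

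Over all processing settings, none of the 9 detected members changed direction, although the Itgae bound was 0 under the 99th percentile limit. Bounds are cut at 0 and cannot turn sign by construction. This applies to the bounds of Itga1, Itgae and, with the stricter limit, Itgam. With no detection limit, where no bound is used, the log2 ratio was 4.49 for Itga1, -1.67 for Itgae and -2.52 for Itgam. After scaling to the 18 spike-in controls, whose median log2 ratio was -0.22 as deposited, the median of all detected genes moved to 0.186, and with median centring to 0.128. With spike-in scaling 6.08% of detected genes were at least 2-fold higher and 3.56% lower in DX5- cells, and with median centring 5.14% and 3.90%, against 3.61% and 5.36% as deposited; the members then counted 1 higher and 3 lower under both.

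**Figure D4:**
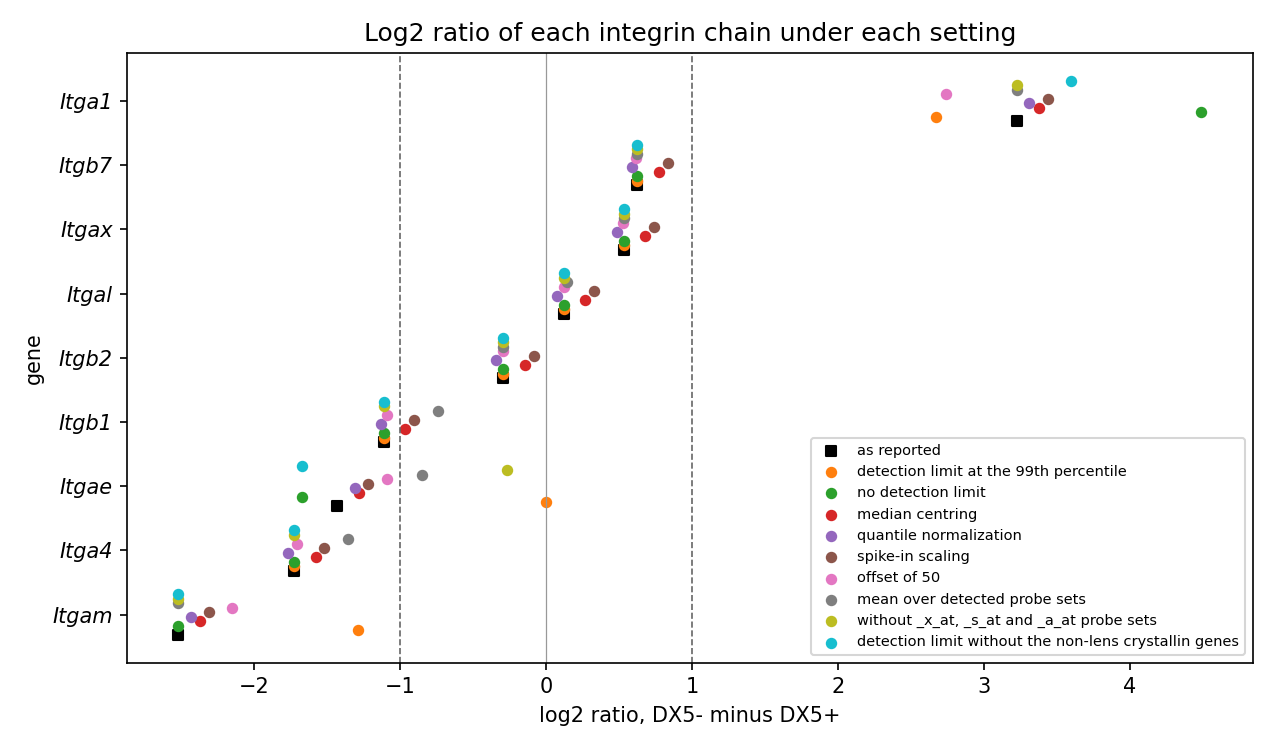
Log2 ratio (DX5- minus DX5+) of each of 9 integrin chains under the 10 processing settings (black squares as reported, coloured points the alternatives); dashed lines mark 2-fold. Itga1, Itga4 and Itgam stay beyond the 2-fold lines under every setting. Itgae and Itgb1 cross them under 3 settings each, and no chain has its sign turned. Bounds are cut at 0 and cannot turn sign, and Itgae reaches 0 with the limit at the 99th percentile.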

How the data were processed

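Total RNA of each sorted population was labelled as biotin cRNA and hybridised to an Affymetrix array, per the labels' protocols. The deposited intensities were made by the authors with MAS5, per the submitters' processing notes; the sources used here do not state its version or scaling settings. Of 45101 probe sets, 34958 had 1 gene symbol, 932 several and 9211 none in the platform annotation table; 34754 gene identifiers matched RefSeq (GRCm38.p6), and no member was renamed. No probe set with several symbols held a member.

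From the deposited intensities, log2 ratios (DX5- minus DX5+) were computed without an offset in Python 3.11.15 with pandas 2.3.3 and numpy 2.4.6. Each gene was represented by its brightest probe set. Genes past 2-fold were counted; 1 array per population allows no test, no p-value and no error, and their number limits the precision. The steps were tested on simulated data with changes put into bright genes only. No changes were put into genes of low mean intensity, such as Itga1, Itga2, Itgae and Itgam. Named genes were every member with every probe set, every other detected integrin chain, and, per list of adaptors and ligands, the genes past 2-fold or the 4 with the largest ratios, with the next gene on each side of a member; marker genes, Tln1, Fermt3, Tbx21, Eomes and the ligand genes below the limits were chosen after their values were seen. The members and lists were chosen with earlier results of these data known. The gene families behind the detection limit were set by family name, but the exact symbols were settled after several readings had been compared with their limits in view; the broad reading was kept, and the narrower one is an added alternative. Alternatives covered the detection limit, scaling, an offset of 50 and the choice of probe sets. Sequences are from RefSeq.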

Additional observations from a re-analysis of the deposited data

How the results depend on the processing

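No paired analysis was possible because each population has 1 array, and no replicate could be left out. Itga1, Itga4 and Itgam stayed past 2-fold under all 9 alternatives, which for Itga1 and, with the stricter limit, Itgam are bounds. With no detection limit, background noise counts. Integrin probe sets at least 2-fold higher in DX5- cells were then 2 in place of 1, and 10 in place of 7 were lower. The members' median log2 ratio was -0.70 with Itga2 included. Other integrin chains at least 2-fold lower were 5 in place of 2. Of the ligand genes 3 were higher and 4 lower in place of 1 and 1. Over all genes the shares rose too, to 10.4% higher and 15.6% lower. Under the 99th percentile limit 4 in place of 7 integrin probe sets were at least 2-fold lower and 0 ligand genes. Of all detected genes 3.26% were then lower. No share over all probe sets was computed for this setting or for no detection limit, so the probe set counts there have no background of their own. With the mean over detected probe sets 2 in place of 4 members were at least 2-fold lower, beside 4.83% of detected genes. With spike-in scaling and with median centring 1 other integrin chain was at least 2-fold lower, beside 3.56% and 3.9% of detected genes. With spike-in scaling 2 ligand genes were higher and 0 lower, and 6.08% of detected genes were higher. With an offset of 50 intensity units 0 ligand genes were lower, beside 3.95% of detected genes. Without the _x_at, _s_at and _a_at probe sets 5 adaptor genes were at least 2-fold lower in place of 3, beside 5.48% of detected genes. Apart from the effect of fewer or more genes above a limit, the causes were not tested. Signal near the detection limit leaves the size of the Itga1, Itga2 and Itgae differences undetermined.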
